A study of Mus with 2 samples.

Results

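G2/M-score cells were the 102 of 681 retained cells, out of 981 called cells, that carried the most RNA of 8 mitotic genes, Ccnb2, Cenpa, Cenpe, Cenpf, Cdc20, Knstrn, Cdkn3 and Kif20a. They came from hematopoietic stem cells (HSCs) that were sorted by surface phenotype, LSK (no lineage markers, Sca-1 and c-Kit present) and FLT3- CD150+ CD48-, and captured with the 10x Genomics Chromium, in which each captured transcript receives the barcode of its cell and a molecular identifier of its own (UMI). The 2 groups were Mx1-Cre; ID2+/+ and Mx1-Cre; ID2Δ/Δ, with 1 library each, made from 1000 sorted cells of the pooled tibias and fibulas of 5 mice aged 8 to 12 weeks. Both groups carried Mx1-Cre, a recombinase driven by an interferon-responsive promoter that pIpC switches on in hematopoietic and some other cells, and HSCs were collected 2 weeks after pIpC. In the floxed Id2 allele, Cre removes the first exons of the gene, and the mice were backcrossed to C57BL/6. The labels of the ID2Δ/Δ sample name Id2+/+ bones in one clause, but the group was taken from its title, and the genotype field matches that title. The question for these cells was which programs cells with mitotic RNA carry in the stem cell gate, and how they compared between the genotypes.

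In G2, cyclin B and Cdk1 accumulate, and their activation drives entry into mitosis. Chromosomes are then condensed by condensin and topoisomerase, attached through kinetochores to the spindle, separated once Cdc20 and the anaphase-promoting complex have marked securin and cyclin B for destruction, and divided between 2 daughters by the central spindle and the contractile ring. Most HSCs of adult bone marrow are quiescent and lack these transcripts. Transcripts of mitotic genes rise through G2 and can outlast division, so a score of mitotic RNA can also pick cells in early G1. Of the 8 genes, Ccnb2 encodes cyclin B2, Cenpa the histone H3 variant of centromeres, Cenpe a kinetochore motor, Cenpf a kinetochore and nuclear matrix protein, Cdc20 the activator of the anaphase-promoting complex, Knstrn a spindle and kinetochore adaptor, Cdkn3 a phosphatase of cyclin-dependent kinases, and Kif20a a kinesin of the central spindle.

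The libraries held 8612217 (ID2+/+) and 17140713 (ID2Δ/Δ) UMIs, of which called cells held 47.7% and 69.3%. Cells were called from at least 4394 and 6178 UMIs, which gave 349 and 632 cells against the 383 and 686 analyzed cells in the labels. Cells rich in mitochondrial, hemoglobin, erythroid or neutrophil RNA were then left out, 34 and 155 of them for Klf1, Car1 and Epor. Retained cells numbered 263 and 418. No barcode was shared between the libraries among retained cells. Id2, the deleted gene, gave 4 UMIs in 3 of the 39 ID2+/+ G2/M-score cells (8.15 CPM, that is UMIs scaled to the same total per group of cells, 95% interval 2.22 to 20.9) and 0 in the 63 ID2Δ/Δ G2/M-score cells, where 3 UMIs would be 3.11 CPM. Over all retained cells Id2 was at 9.74 CPM in ID2+/+ and 0 in ID2Δ/Δ, at least 15.5-fold lower against a floor of 3 UMIs over the retained ID2Δ/Δ cells.

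The rule took the top 15% of retained cells of each library by summed CPM of the 8 genes, so it fixed the number of cells, 39 in ID2+/+ and 63 in ID2Δ/Δ, and the levels of these genes are a description of the choice. Among ID2+/+ G2/M-score cells the lowest score was 382 CPM, the median 917 and the highest 6099. Among ID2Δ/Δ G2/M-score cells these values were 531, 1985 and 5344 CPM, whereas the other cells had medians of 105 and 112 CPM. The score was continuous at the limit. In ID2+/+, the 3 cells just inside had 382, 387 and 388 CPM, each from 2 UMIs, and the 3 just outside had 377, 376 and 370 CPM from 3 to 5 UMIs in deeper cells. In ID2Δ/Δ, the 3 cells just inside had 531, 577 and 588 CPM and the 3 just outside 504, 495 and 485 CPM. A single UMI was worth 191 CPM in the lowest ID2+/+ cell, so membership at that end rested on 1 or 2 molecules. In ID2+/+, 18 of 39 cells (46.2%) had UMIs of only 1 to 3 of the 8 genes, against 6 of 63 (9.52%) in ID2Δ/Δ, and at an equal depth of 4394 UMIs 25 of 39 (64.1%) against 28 of 63 (44.4%). All 8 genes were detected in 6 and 16 cells.

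Each of the 8 genes was higher in the summed G2/M-score cells than in the other cells of both libraries. Ccnb2 stood at 308 CPM in ID2+/+ G2/M-score cells and 20.9 in the other cells, and at 406 and 23.5 CPM in ID2Δ/Δ. Cenpa stood at 398 and 34.0 CPM in ID2+/+ and at 448 and 29.6 in ID2Δ/Δ. Cdc20 stood at 234 and 29.99 CPM in ID2+/+ and at 307 and 27.2 in ID2Δ/Δ. These 3 genes supplied most of the score in both libraries. The 5 lower genes ran in ID2+/+ from 57.1 CPM (Kif20a) to 114 CPM (Cenpf), with Cdkn3 at 63.2, Knstrn at 99.9 and Cenpe at 104, and in ID2Δ/Δ from 78.8 CPM (Kif20a) to 194 CPM (Cenpf). Cdkn3 differed most between G2/M-score and other cells in ID2+/+ (22.3-fold) and Cenpf in ID2Δ/Δ (23.2-fold). Free RNA was rich in the same genes, since barcodes of 1 to 100 UMIs held them at 1139 and 1262 CPM. By hemoglobin, at most 10.7% and 5.58% of the UMIs of other cells could be free RNA, which at these levels would carry 122 and 70.4 CPM of the 8 genes, beside 119 and 134 CPM measured there and 1378 and 1832 CPM in G2/M-score cells. The low level in other ID2+/+ cells therefore could not be told apart from free RNA. For G2/M-score cells the same bound was 35.9% and 8.42% of UMIs. Without those that carried another cell type's genes, described below, it was 9.35% and 4.60%.

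The name was checked against the mitotic genes that the rule did not use, counted after every cell was thinned once, at random, to 4394 UMIs. ID2+/+ G2/M-score cells had UMIs of 17 to 69 such genes with a median of 26, and the other cells a median of 20. ID2Δ/Δ G2/M-score cells had 15 to 67 with a median of 41, and the other cells a median of 21. The 95th percentile of other cells was passed by 19 of 39 cells in ID2+/+ (48.7%, 95% interval 32.4 to 65.2) and by 34 of 63 in ID2Δ/Δ (54.0%, 40.9 to 66.6). Of the cells with UMIs of 1 to 3 rule genes, 2 of 18 passed it in ID2+/+ and 0 of 6 in ID2Δ/Δ, against 17 of 21 and 34 of 57 of the cells with 4 or more. The name G2/M was therefore borne out by other mitotic genes in about as many cells as not, and the cells are called by their score here.

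**Figure D1:**
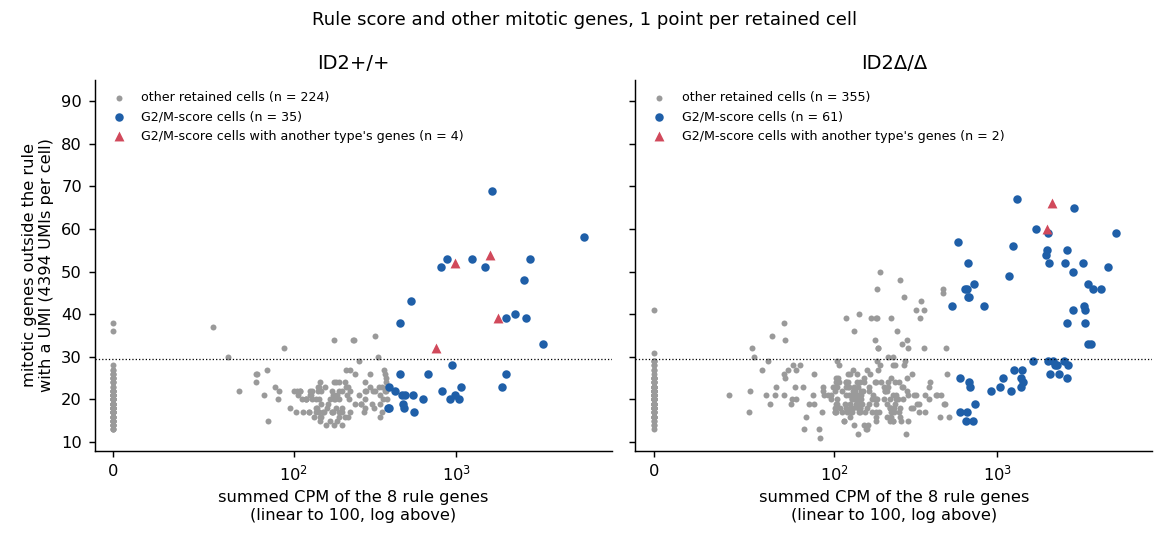
Each point is a retained cell of the ID2+/+ (left) or ID2Δ/Δ library (right), placed by the summed CPM of the 8 rule genes (linear to 100, log above) and by the number of mitotic genes outside the rule with a UMI after thinning to 4394 UMIs. Other cells have a median of 20 and 21 such genes, whereas G2/M-score cells fall on both sides of the dotted line drawn just under 30 genes.

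Not all of these cells belonged to the stem cell lineage by their genes. In ID2+/+, 3 G2/M-score cells carried erythroid genes outside the rule at 10000 CPM or more, had 37702 to 59136 UMIs each, and held 29.0% of all G2/M-score UMIs, and 1 cell carried B cell genes. In ID2Δ/Δ, 2 cells with 46144 and 46974 UMIs carried erythroid genes and held 9.66%. They lay under the Klf1, Car1 and Epor limit of the rule. These limits were chosen after the cells were seen. Leaving such cells out left 35 and 61 G2/M-score cells and 223 and 353 others, and counts or medians of the gene lists are also given without them. Summed erythroid genes were at 8744 CPM in G2/M-score cells and 3434 in other cells of ID2+/+, with 14 of 21 tested at least 2-fold higher, and at 4337 and 2945 CPM in ID2Δ/Δ, with 11 of 22. Without the cells of other types 1 of 19 and 1 of 22 were. Of B cell genes, 3 of 4 tested were at least 2-fold higher in ID2+/+ (198 against 58.9 CPM summed), and 0 of 2 without the cells of other types, beside 0 of 1 in ID2Δ/Δ. Of neutrophil genes, 0 of 9 and 0 of 11 were at least 2-fold higher, and of monocyte and dendritic cell genes 0 of 3 and 0 of 5. Too few genes of the remaining lists reached 20 UMIs to describe them by counts, 2 and 1 of T and NK cells and 1 in each library of mast cells and basophils and of stroma and endothelium. The neutrophil list summed to 956 CPM against 1146 in other cells of ID2+/+ and 499 against 711 in ID2Δ/Δ, and the mast and basophil list stayed between 4.15 and 16.3 CPM.

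Of genes with at least 20 UMIs, 401 of 8541 (4.7%) were at least 2-fold higher and 686 (8.03%) at least 2-fold lower in summed G2/M-score cells in ID2+/+, and 359 of 9718 (3.69%) and 745 (7.67%) in ID2Δ/Δ. Without the cells of other types, 291 of 8357 were higher and 478 lower in ID2+/+, and 312 of 9671 higher and 695 lower in ID2Δ/Δ. Among mitotic genes outside the rule, 79 of 123 were at least 2-fold higher in ID2+/+ and 96 of 147 in ID2Δ/Δ. Their median log2 ratios were 1.42 and 1.62, beside -0.07 and -0.05 for all genes tested, and without the cells of other types 1.13 and 1.52. In both libraries at once, 161 of 8485 genes (1.9%) were at least 2-fold higher. They held 72 of the 123 mitotic genes tested outside the rule, and the 8 rule genes, whose rise the rule fixed. With the rule genes counted, 80 of the 161 (49.7%) were mitotic genes, and 10 of the 161 were genes of the erythroid list. In each library on its own the share, again with the rule genes counted, was lower, 87 of 401 (21.7%) in ID2+/+ and 104 of 359 (29.0%) in ID2Δ/Δ. These 161 made up 40.1% of the genes higher in ID2+/+ and 44.8% of those higher in ID2Δ/Δ. Because the cells were picked on mitotic RNA in the same data and each genotype had 1 library, these ratios are descriptions, with exact 95% intervals that cover counting error only.

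Regulators of the entry into mitosis were high in both libraries. In the list of the cyclin B switch, 13 of 19 genes tested were at least 2-fold higher in ID2+/+ and 14 of 21 in ID2Δ/Δ, with medians of 2.04 and 1.91. Leaving out the cells of other types gave 10 of 17 and 14 of 21, with medians of 1.48 and 1.87. Ccnb1, the partner of Cdk1 at mitotic entry, stood at 188 CPM against 17.0 in other ID2+/+ cells (11.05-fold, 7.25 to 17.3) and at 203 against 28.5 in ID2Δ/Δ (7.13-fold, 5.61 to 9.09). Cdk1 itself stood at 220 against 53.2 CPM in ID2+/+ (4.14-fold, 2.86-fold without the cells of other types) and at 282 against 72.5 in ID2Δ/Δ (3.89-fold). Ccna2, cyclin A2 of S and G2 phase, stood at 183 against 23.8 CPM and at 164 against 27.7. Thus both cyclins had larger ratios than their kinase, and Cdk1 had the higher level in other cells. The kinases Plk1 (75.4 against 11.3 CPM in ID2+/+, 95.4 against 11.8 in ID2Δ/Δ) and Aurka (81.5 against 11.3, and 109 against 9.42) were lower in level. The most abundant members were Cks2, a small subunit that binds Cdk1, at 628 against 153 CPM and 866 against 176, and Cks1b at 340 against 125 and 473 against 165.

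Genes of chromosome condensation were also high, with 13 of 16 tested at least 2-fold higher in ID2+/+ and 16 of 18 in ID2Δ/Δ, at medians of 2.09 and 2.01. When those cells were left out, the counts were 8 of 13 and 15 of 18 and the medians 1.29 and 1.89. Hmgb2, a chromatin protein of dividing cells, was the most abundant at 1984 against 416 CPM (4.76-fold) and 2534 against 512 (4.95-fold). Top2a, topoisomerase II alpha, stood at 226 against 42.4 CPM (5.33-fold, 3.56-fold without the cells of other types) and at 335 against 73.3 (4.57-fold). Mki67, the proliferation antigen that coats mitotic chromosomes, stood at 161 against 34.0 CPM and 195 against 32.2. The chromokinesin Kif22 had the larger ratios, 7.72 and 9.22, from levels of 91.7 and 118 CPM. The condensin ATPase Smc4 was already present in other cells, at 123 and 139 CPM, and reached 308 and 386 CPM. Ncaph2, a subunit of condensin II, which is present outside mitosis too, differed little, at 1.38-fold (0.988 to 1.91) in ID2+/+ and 1.29-fold in ID2Δ/Δ.

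Kinetochore genes were less uniform. At least 2-fold higher were 19 of 30 in ID2+/+ and 24 of 38 in ID2Δ/Δ, with medians of 1.23 and 1.36. The counts without the cells of other types were 15 of 29 and 22 of 38, with medians of 1.06 and 1.40. Spc24, of the Ndc80 complex that grips microtubules, stood at 139 against 36.8 CPM in ID2+/+ and 187 against 60.4 in ID2Δ/Δ, and its partner Spc25 was 4.43-fold and 5.04-fold higher. The checkpoint gene Mad2l1 stood at 75.4 against 28.3 CPM and 111 against 32.2. The checkpoint gene Bub3 (1.53-fold and 1.39-fold) and Zwint (1.52-fold and, with an interval of 0.869 to 1.33, 1.08-fold) stayed under 2-fold in both libraries. The list thus held genes with little difference between G2/M-score and other cells beside genes with a large one.

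Spindle genes had 18 of 26 members at least 2-fold higher in ID2+/+ and 22 of 32 in ID2Δ/Δ, with medians of 1.60 and 2.15. After leaving out the cells of other types they had 12 of 23 and 23 of 32, with medians of 1.34 and 1.95. Hmmr, a spindle and hyaluronan-binding protein, stood at 83.6 CPM against 4.53 in ID2+/+ (18.5-fold, 8.54 to 45.6) and 123 against 7.33 in ID2Δ/Δ (16.8-fold, 11.1 to 26.4). Tpx2, which recruits Aurora A to the spindle, stood at 95.8 against 8.49 CPM and 135 against 11.3, and Nusap1 was 11.2-fold and 10.2-fold higher. The 2 most abundant tubulin genes of the list differed less, Tuba1b at 1.97-fold and 1.74-fold and Tubb5 at 2.12-fold and 1.86-fold, whereas the less abundant Tuba1c was at 4.05-fold and 3.06-fold. The microtubule-destabilizing Stmn1 was abundant in other cells too, at 898 CPM in ID2+/+ and 1241 in ID2Δ/Δ, and reached 1415 and 1707 CPM.

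The anaphase list split into regulators and core subunits. The ubiquitin-conjugating enzyme Ube2c, which works with the anaphase-promoting complex, stood at 312 against 28.3 CPM in ID2+/+ (11.02-fold, 7.96 to 15.5) and 363 against 28.5 in ID2Δ/Δ (12.7-fold, 10.2 to 15.9). Ube2s, which extends the chains, stood at 587 against 248 CPM and 729 against 267. Cdca3 was 10.0-fold and 9.76-fold higher. The subunits of the complex were near the other cells: Anapc5 was at 1.20-fold (0.984 to 1.45) and 1.33-fold, and Anapc11 at 0.914-fold (0.659 to 1.25) and 0.924-fold (0.754 to 1.13). For that reason only 5 of 17 and 5 of 19 genes of the list were at least 2-fold higher, with medians of 0.34 and 0.45, and 4 of 17 and 5 of 19 without the cells of other types.

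Among the mitotic lists, genes of cytokinesis had the highest median in both libraries, 2.18 and 2.21, with 11 of 15 and 15 of 19 at least 2-fold higher. Leaving out the other types, the medians were 2.21 and 2.05, with 10 of 14 and 15 of 19. Birc5, or survivin, of the chromosomal passenger complex, stood at 304 against 52.1 CPM in ID2+/+ and 453 against 63.1 in ID2Δ/Δ. Cdca8, or borealin, of the same complex, stood at 283 against 37.9 CPM and 309 against 39.8. The complex's kinase Aurkb was 4.90-fold and 5.68-fold higher. Central spindle genes moved with them, Prc1 at 7.04-fold and 7.93-fold and Racgap1 at 9.01-fold and 6.57-fold. Rhoa, which drives the contractile ring but acts in all cells, was at 0.893-fold and 1.06-fold.

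**Figure D2:**
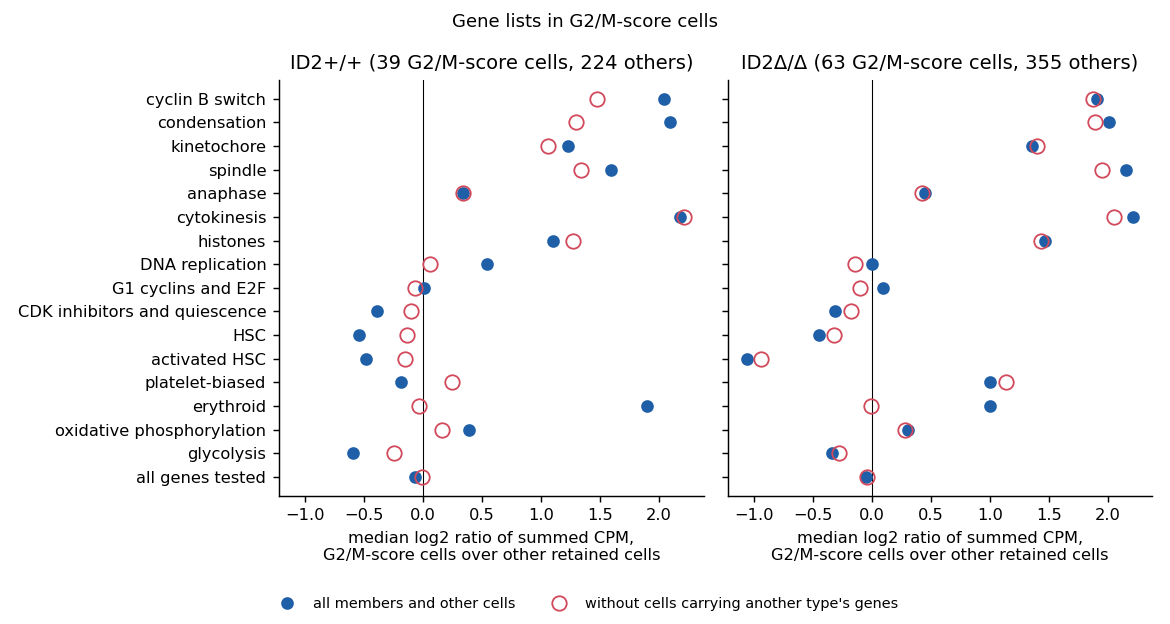
Median log2 ratio of summed CPM over the genes of each list, G2/M-score cells over other retained cells, for ID2+/+ (left) and ID2Δ/Δ (right). Filled points use all cells, and open points leave out cells carrying another type's genes. The mitotic lists lie above 0 in both libraries, and the erythroid list moves to -0.04 and -0.01 when those cells are left out.

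Summed over all G2/M-score cells, DNA replication genes did not follow the mitotic genes. In ID2+/+, 15 of 57 were at least 2-fold higher with a median of 0.54, but without the cells of other types only 3 of 56 were, with a median of 0.06. In ID2Δ/Δ, 2 of 58 were at least 2-fold higher and the median was 0.00, or 1 of 58 and -0.14 without the cells of other types. Mcm6, a subunit of the replicative helicase, stood at 271 against 267 CPM in ID2+/+ and 252 against 343 in ID2Δ/Δ. Rrm2, the regulated subunit of ribonucleotide reductase, stood at 296 against 73.0 CPM in ID2+/+ (4.05-fold, but 1.04-fold without the cells of other types) and 183 against 88.2 in ID2Δ/Δ (2.07-fold and 1.27-fold). Mcm10 stood at 26.5 against 7.92 CPM and 17.6 against 10.5. The top 15% of retained cells by summed replication genes included 9 of 39 ID2+/+ G2/M-score cells (23.1%, 11.1 to 39.3) and 9 of 63 in ID2Δ/Δ (14.3%, 6.75 to 25.4). All 4 ID2+/+ and all 2 ID2Δ/Δ G2/M-score cells of other types were among these.

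Histone genes were higher. At least 2-fold higher were 7 of 13 genes in ID2+/+ and 12 of 16 in ID2Δ/Δ, and 9 of 12 and 11 of 16 without the cells of other types. The variant H2afz, most abundant of the list, stood at 2811 against 1276 CPM in ID2+/+ and 3828 against 1711 in ID2Δ/Δ. The replication-dependent Hist1h2ap stood at 459 against 80.4 CPM and 194 against 30.6. Hist1h2bc, whose transcripts can be polyadenylated outside S phase, stood at 271 against 99.03 CPM and 291 against 78.2. The summed histone level passed the 95th percentile of other cells in 22 of 39 ID2+/+ cells (56.4%) and 52 of 63 ID2Δ/Δ cells (82.5%).

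G1 regulators were near the other cells or lower. Of the list of G1 cyclins and E2F factors, 3 of 18 genes in ID2+/+ and 3 of 19 in ID2Δ/Δ were at least 2-fold higher, and 0 of 16 and 1 of 19 without the cells of other types. Ccnd2, the D cyclin of stem cells, stood at 149 against 408 CPM in ID2+/+ (0.365-fold, 0.283 to 0.464) and 271 against 425 in ID2Δ/Δ (0.638-fold, 0.557 to 0.727). Ccnd1 stood at 12.2 against 40.7 CPM and 27.0 against 48.7. Cyclin E1 (Ccne1) was 3.01-fold and 2.70-fold higher, but 1.29-fold and 1.24-fold without the cells of other types. Myc, a driver of growth, was at 0.709-fold and 0.675-fold. Without the cells of other types Ccnd2 was at 0.506-fold and 0.696-fold, Ccnd1 at 0.431-fold and 0.613-fold and Myc at 0.893-fold and 0.719-fold. The other D cyclin gene, Ccnd3, was not lower, at 1.43-fold (1.18 to 1.72) in ID2+/+ and 1.16-fold (1.003 to 1.35) in ID2Δ/Δ, or 1.13-fold and 1.074-fold without the cells of other types.

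Among CDK inhibitors and quiescence genes, 2 of 18 were at least 2-fold higher and 6 at least 2-fold lower in ID2+/+, and 2 and 3 of 20 in ID2Δ/Δ. Once those cells were left out, 3 of 18 and 1 of 20 were at least 2-fold lower, and the medians moved from -0.39 and -0.31 to -0.10 and -0.18. Cdkn1c, the inhibitor p57 of quiescent HSCs, stood at 18.3 against 51.5 CPM in ID2+/+ and 17.6 against 39.8 in ID2Δ/Δ. Cdkn2d, the inhibitor p19 of Cdk4 and Cdk6, went apart from it in ID2Δ/Δ, at 110 against 52.6 CPM (2.09-fold), and stood at 46.9 against 49.8 CPM in ID2+/+. Txnip was at 0.766-fold and 0.793-fold.

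Outside all lists, genes were ranked by the smaller of their ratios in the 2 libraries. The highest was Lockd, a long noncoding RNA next to Cdkn1b, at 247 against 44.1 CPM in ID2+/+ (5.59-fold, 4.17 to 7.53) and 335 against 67.5 in ID2Δ/Δ (4.96-fold, 4.201 to 5.87). Without the cells of other types its ratios were 6.40 and 5.30. Dbf4, the activator of the Cdc7 kinase, was 3.09-fold and 3.89-fold higher, and Trim59 2.76-fold and 2.89-fold. Mns1 was 6.64-fold and 3.43-fold higher, and 2.59-fold and 2.34-fold without the cells of other types. Tspo2, a translocator protein of erythroid cells, and Ctse were also high by this ranking, but fell when the cells of other types were left out. Tspo2 went from 5.76-fold to 1.03-fold in ID2+/+ and from 4.92-fold to 1.57-fold in ID2Δ/Δ. Ctse went from 5.02-fold to 1.09-fold and from 3.04-fold to 1.12-fold. The lowest genes rested on few molecules, such as Lbp at 2.04 against 35.7 CPM in ID2+/+ and 3.11 against 29.8 in ID2Δ/Δ, and Ctsf at 6.12 against 34.5 and 2.07 against 25.9.

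Because other mitotic genes were plentiful in some G2/M-score cells and at the level of other cells in the rest, the cells were divided at 30 such genes at the thinned depth, a limit set after the cells were seen and with the cells of other types left out. In ID2+/+, 14 cells were at or above it and 21 below. In ID2Δ/Δ, 34 were at or above it and 27 below. Within 3 genes of it lay 2 and 11 cells, and 10 of 223 and 34 of 353 other cells also reached it. The split is a range on a score, and the levels of mitotic genes on its sides are fixed by it. The rule genes, the histones, Lockd and the stem cell genes were not used to make it.

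Cells below the limit had fewer mitotic genes by the split and, like all G2/M-score cells, much RNA of the rule genes by the rule, so their levels of both are descriptions. Ccnb2 stood at 349 CPM above the limit, 271 below it and 21.0 in other cells of ID2+/+, and at 370, 490 and 22.6 CPM in ID2Δ/Δ. Cenpa followed at 518, 228 and 34.1 CPM in ID2+/+ and 454, 380 and 29.2 in ID2Δ/Δ. Cdc20 was lower below the limit, at 343, 61.6 and 30.1 CPM in ID2+/+ and 416, 95.9 and 27.4 in ID2Δ/Δ. Lockd stood at 405, 136 and 43.2 CPM and at 370, 332 and 67.4. Of the genes that made the split, not all were at the level of other cells below it. Cdk1 was at 55.4 CPM below the limit and 53.4 in other cells of ID2+/+, and at 37.7 and 71.6 in ID2Δ/Δ. Top2a was at 12.3 below and 42.1 in other cells, and at 41.1 and 73.0 in ID2Δ/Δ. Hmgb2 lay between, at 2684, 758 and 417 CPM and at 2889, 1703 and 499. Birc5 was at 55.4 CPM below and 51.2 in other cells of ID2+/+, but at 127 and 62.1 in ID2Δ/Δ, and Cdca3 was at 30.8 and 13.1 CPM in ID2+/+ (2.36-fold, 0.699 to 6.33) and 78.8 and 17.4 in ID2Δ/Δ (4.53-fold, 2.69 to 7.39). Of these genes, Cdk1 and Top2a below the limit were thus at or under the level of other cells, whereas Hmgb2 and Cdca3 were over it, in ID2+/+ Cdca3 with an interval that holds 1, and Birc5 was over it in ID2Δ/Δ.

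The gene that stood out below the limit was Hist1h2bc. It was at 90.02 CPM above the limit, 684 below it and 99.5 in other cells of ID2+/+, and at 121, 719 and 78.7 CPM in ID2Δ/Δ, a ratio of cells below to cells above of 7.60 (4.48 to 13.7) in ID2+/+ and 5.95 (4.52 to 7.92) in ID2Δ/Δ. It was detected in 12 of 21 and 26 of 27 cells below, in 6 of 14 and 18 of 34 above, and in 61 of 223 and 84 of 353 other cells. Median depths were 6367 and 9620 UMIs below, 11678 and 14632 above, and 7006 and 9318 in other cells, so the cells below were the shallower of both sides. No single cell held more than 20.7% (ID2+/+) or 10.5% (ID2Δ/Δ) of the Hist1h2bc UMIs below the limit. Hist1h1c, a linker histone gene, stood at 234 CPM below and 90.02 above in ID2+/+ and at 230 and 65.6 in ID2Δ/Δ. The replication-dependent Hist1h2ap had the opposite order, at 850 CPM above, 117 below and 80.2 in other cells of ID2+/+ and 257, 37.7 and 30.8 in ID2Δ/Δ. Tyms, thymidylate synthase, ran the same way, at 208 and 61.6 CPM and at 285 and 41.1. Per cell, summed replication genes had medians of 3353 CPM above, 2445 below and 2496 in other cells of ID2+/+. In ID2Δ/Δ these were 3946, 2905 and 3304 CPM.

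Stem cell genes differed along the same split. Hlf, a transcription factor of HSCs, was at 50.6 CPM above the limit, 277 below it and 134 in other cells of ID2+/+, and at 22.5, 92.5 and 96.4 CPM in ID2Δ/Δ. Per cell, the summed HSC genes had medians of 2987 CPM above, 4087 below and 4302 in other cells of ID2+/+, and 2525, 3971 and 4112 in ID2Δ/Δ. By this median the cells above the limit were the lowest in both libraries. Hlf alone was 2.07-fold (1.47 to 2.85) over other cells below the limit in ID2+/+, and 0.960-fold (0.624 to 1.42) in ID2Δ/Δ. In ID2+/+ it was detected in 13 of 21 cells below the limit and 127 of 223 other cells, near the same share. There 1 cell held 20% of the Hlf UMIs below the limit. Over 2496 genes tested outside the mitotic lists and the rule, 19 were at least 2-fold higher below the limit in both libraries, among them Ltb, Nkx2-3, Sqstm1, Dusp2 and Aplp2 beside Hist1h2bc, Hlf and Hist1h1c, and 20 were at least 2-fold higher above it, led by 2810417H13Rik, a PCNA-associated factor, and Asf1b, a histone chaperone.

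**Figure D3:**
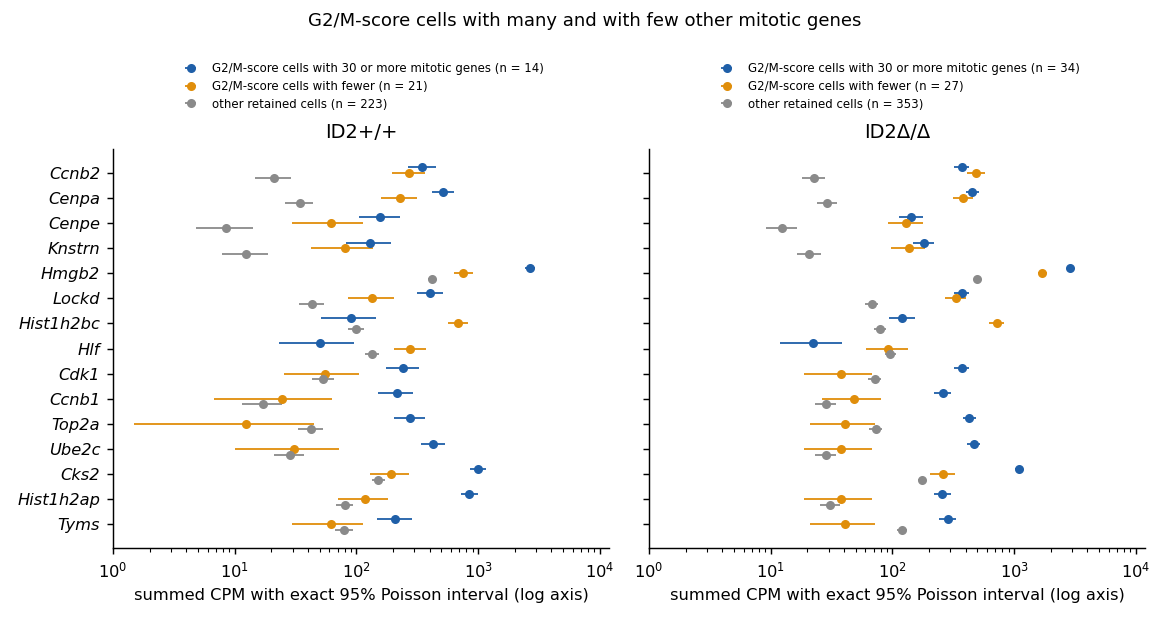
Summed CPM with exact 95% Poisson intervals (log axis) of 15 genes in G2/M-score cells with 30 or more other mitotic genes, in those with fewer, and in other retained cells, for ID2+/+ (left) and ID2Δ/Δ (right). Ccnb2 is high on both sides of the split, Hist1h2bc is high below the limit (684 and 719 CPM), and Cdk1, Top2a and Ube2c are lower below the limit than above it.

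G2/M-score cells were deeper than the others. Their median was 9124 UMIs (5151 to 59136) against 7010.5 in ID2+/+, and 11908 (6315 to 46974) against 9318 in ID2Δ/Δ, ratios of 1.30 and 1.28. The median number of genes was 2989 against 2650 and 3399 against 3065, and at the thinned depth 1912 against 1922.5 and 1859 against 1877, so the number of genes at equal depth differed little. Within ID2+/+ G2/M-score cells, the score and depth had a Spearman correlation of 0.35 over 39 cells, and within ID2Δ/Δ of -0.20 over 63 cells, where CPM and depth share the same UMIs.

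Metabolic genes differed less than mitotic ones. Oxidative phosphorylation genes summed to 18031 CPM in G2/M-score cells and 13971 in other cells of ID2+/+ and to 20359 and 16674 in ID2Δ/Δ, with 40 of 41 and 39 of 41 genes above 0 and none at 2-fold. Their medians of 0.39 and 0.31 became 0.16 and 0.28 without the cells of other types. Glycolysis genes were lower, at medians of -0.60 and -0.33, or -0.25 and -0.28 without the cells of other types.

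Genes of the HSC state had medians under 0 in both libraries. Of HSC genes, 0 of 23 in ID2+/+ and 0 of 24 in ID2Δ/Δ were at least 2-fold higher and 7 in each at least 2-fold lower, with medians of -0.54 and -0.45, or -0.13 and -0.32 without the cells of other types, where 1 of 23 (8 above 0) and 5 of 24 (6 above 0) were at least 2-fold lower, beside 478 of 8357 and 695 of 9671 of all genes. Hlf stood at 110 against 134 CPM in ID2+/+ and 41.5 against 95.8 in ID2Δ/Δ. In ID2+/+ its ratio of 0.821 became 1.18 without the cells of other types, so its direction there rested on 4 cells. Mecom, a self-renewal factor, was at 0.580-fold and 0.346-fold, Procr, the endothelial protein C receptor that marks HSCs, at 0.564-fold and 0.405-fold, and Mllt3 at 0.475-fold and 0.577-fold. Without the cells of other types Mecom was at 0.832-fold in ID2+/+ and 0.380-fold in ID2Δ/Δ, and Procr at 0.765-fold and 0.445-fold. Genes of activated HSCs were lower too, at medians of -0.48 and -1.06, or -0.15 (3 of 9 above 0) and -0.94 without the cells of other types. Cd34 stood at 79.5 against 145 CPM and 67.4 against 141. Sox4 stood at 218 against 322 CPM and 118 against 261, and without the cells of other types at 0.938-fold in ID2+/+. The study's set of activated HSC genes also holds Ccnb2, which the rule used and which is not counted here.

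Platelet-biased genes were higher in ID2Δ/Δ, whereas in ID2+/+ their direction turned with single cells. The study's set of platelet-biased HSC genes also holds Cdk1, which is counted here with the cyclin B switch. In ID2+/+, 0 of 14 were at least 2-fold higher and 1 was at least 2-fold lower (median -0.18). Without the cells of other types the median was 0.24, with 9 of 14 above 0, and the summed ratio went from 0.974 (0.912 to 1.04) to 1.36 (1.27 to 1.45). When the 1 cell with the most Pf4 was left out too, a choice made after the cells were seen, these were -0.23, 4 of 13 and 0.921 (0.850 to 0.997). In ID2Δ/Δ, 9 of 17 were at least 2-fold higher (median 1.003, or 1.13). There the list kept its direction without the cell of most Pf4 (median 0.84), but with no cell type left out by the rule its median was -0.60 and the log2 ratio of Pf4 -0.49. Pf4, platelet factor 4, stood at 1099 against 954 CPM in ID2+/+ (1.15-fold, 1.04 to 1.27) and 3488 against 1145 in ID2Δ/Δ (3.05-fold, 2.91 to 3.19). In ID2+/+, 1 cell held 57.1% of the Pf4 UMIs of G2/M-score cells, and without it Pf4 stood at 492 CPM (0.515-fold, 0.447 to 0.592), whereas without the corresponding ID2Δ/Δ cell it stood at 2995 CPM (2.62-fold, 2.49 to 2.74). Vwf, von Willebrand factor, stood at 20.4 against 31.1 CPM and 61.2 against 28.8. Gp1bb, a subunit of its platelet receptor, stood at 42.8 against 49.8 CPM and 151 against 60.7, and Itga2b, the platelet integrin CD41, at 112 against 120 and 265 against 132. Gp9 differed less, at 69.3 against 95.1 CPM and 116 against 109.

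Pf4 was unevenly spread. Pf4 at 1000 CPM or more was found in 7 of 39 ID2+/+ G2/M-score cells (17.9%, 7.54 to 33.5) and 16 of 63 in ID2Δ/Δ (25.4%, 15.3 to 37.9), against 16 of 224 (7.14%) and 37 of 355 (10.4%) of other cells. At 5000 CPM or more there were 1 of 39 (2.56%) and 11 of 63 (17.5%), against 9 of 224 (4.02%) and 19 of 355 (5.35%) of other cells, so that in ID2+/+ the order of G2/M-score and other cells was the other way at this limit. Such Pf4-high G2/M-score cells were deeper, with median UMIs of 11863 and 24550.5 against 6979 and 10157 in the remaining 28 and 45 without another type's genes, and had more mitotic genes at equal depth, medians of 43 and 50.5 against 22.5 and 29. Pf4-high other cells were deeper too, at medians of 14574.5 and 16904 UMIs against 6841 and 9003.5. They also had more mitotic genes at equal depth than the remaining other cells, medians of 24.5 and 24 against 20 and 21. Their summed replication genes had medians of 7884 and 7677 CPM against 2417 and 3012. Depth therefore moved with Pf4 in G2/M-score and other cells alike, and its part in the result was not tested.

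**Figure D4:**
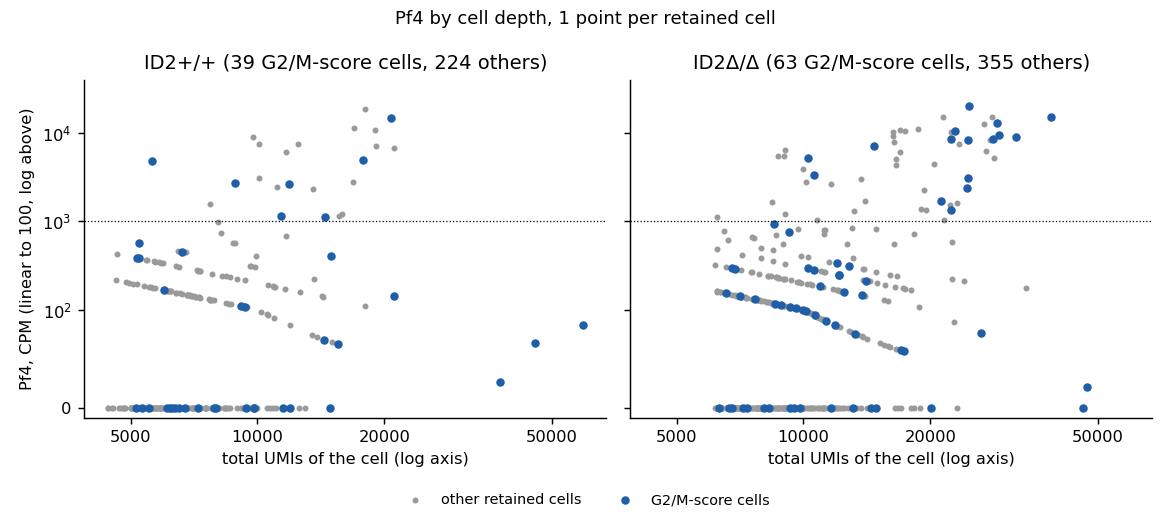
Pf4 in CPM (linear to 100, log above) against total UMIs (log axis) for each retained cell, with G2/M-score cells in blue and other cells in gray and the dotted line at 1000 CPM. In ID2Δ/Δ, 11 of 63 G2/M-score cells lie at 5000 CPM or more, beside 19 of 355 other cells, and in ID2+/+ 1 of 39, beside 9 of 224.

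Between the genotypes, the number of G2/M-score cells is set by the rule, so shares were compared at 1 limit for both libraries. At 382 CPM, the lowest score of an ID2+/+ G2/M-score cell, 39 of 263 ID2+/+ cells (14.8%, 10.8 to 19.7) and 76 of 418 ID2Δ/Δ cells (18.2%, 14.6 to 22.2) passed. At 531 CPM, the lowest ID2Δ/Δ score, 28 ID2+/+ cells (10.6%, 7.19 to 15.02) and 63 ID2Δ/Δ cells (15.1%, 11.8 to 18.9) passed. Both pairs of intervals overlapped. ID2Δ/Δ cells were deeper, so all cells were also thinned to 4394 UMIs. At 5 or more UMIs of the 8 genes, 5.70% (3.23 to 9.23) and 10.0% (7.34 to 13.3) passed in 1 draw, and over 20 draws the shares ran from 5.32% to 7.22% in ID2+/+ and from 9.81% to 11.5% in ID2Δ/Δ. At 10 or more UMIs they ran from 1.90% to 3.42% and from 5.02% to 6.94%, and at 3 or more from 9.13% to 13.3% and from 14.1% to 16.0%, with 10.6% and 13.6% in the draw used elsewhere. At 2 or more UMIs the draws overlapped, from 17.9% to 23.2% and from 20.3% to 25.8%, and in the draw used elsewhere the order was the other way, 22.4% in ID2+/+ and 20.6% in ID2Δ/Δ. The 20 draws of the libraries were thus apart at 3, 5 and 10 UMIs, narrowly at 3, where the ID2Δ/Δ share in the draw used elsewhere lay under their range. All draws thin the same cells, so their ranges cover thinning only, not the sampling of cells or mice. The counting intervals overlapped at each limit given, and no replicates exist to check the difference.

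Summed over G2/M-score cells, 178 of 6801 genes (2.62%) were at least 2-fold higher and 338 (4.97%) at least 2-fold lower in ID2Δ/Δ than in ID2+/+. The limit of the rule was higher in ID2Δ/Δ (531 against 382 CPM), and the 8 rule genes were all higher there, with a median log2 ratio of 0.45, near the 0.40 of the other cells. Mitotic genes outside the rule were above 0 in 96 of 140 with a median of 0.20, or 0.29 without the cells of other types, and the other cells had the same 0.20. Cytokinesis genes were above 0 in 17 of 17 (median 0.57, other cells 0.33). The cyclin B switch was at -0.11 (other cells 0.13), but at 0.44 without the cells of other types. Kinetochore genes were at 0.00 (other cells 0.29), or 0.17 without the cells of other types. Spindle genes were at 0.27 (other cells 0.15), anaphase genes at 0.23 (0.11) and condensation genes at 0.25 (0.22). DNA replication genes were above 0 in 15 of 56 (median -0.30), again moved by the cells of other types, without which the median was 0.09, beside 0.39 in other cells. With all cells, mitotic genes thus had the same pooled median in G2/M-score and other cells, and the single lists lay on either side of the other cells. Without the cells of other types, the condensation, spindle, anaphase and cytokinesis lists were at 0.30, 0.29, 0.23 and 0.45. Of the mitotic lists, only that of the kinetochore was then under the other cells.

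The list with the highest median between the genotypes was that of platelet-biased genes. All 13 tested were above 0 and 8 at least 2-fold higher in ID2Δ/Δ G2/M-score cells, with a median log2 ratio of 1.24 (0.99 and 12 of 13 without the cells of other types), beside 0.03 in other cells. The median fell to 0.37 with no cell type left out by the rule, to 0.62 without cells above 3 times the median UMIs and to 0.64 when cells were ranked by the number of rule genes detected. Pf4 was 3.17-fold higher (2.90 to 3.48) in G2/M-score cells and 1.20-fold in other cells. Single cells moved this value, to 6.09-fold without the cell of most Pf4 in each library, 2.48-fold without the cells of other types and 4.79-fold without both. Gp1bb was 3.54-fold higher (2.23 to 5.89), beside 1.22-fold in other cells. The tubulin gene Tuba8 stood at 26.5 CPM in ID2+/+ and 127 in ID2Δ/Δ (4.78-fold, 2.69 to 9.22), beside 1.05-fold in other cells. Whether G2/M-score and other cells differ in this respect was not tested, since there is 1 library per genotype.

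The genes named for the lowest ratios in ID2Δ/Δ G2/M-score cells were lower in other ID2Δ/Δ cells as well. Immediate early genes were above 0 in 0 of 12 (median -1.20, other cells -1.02). Fos stood at 161 and 12.4 CPM (0.0773-fold, beside 0.201 in other cells) and Jun at 400 and 113 (0.283-fold, beside 0.302). Wdr89 stood at 1160 and 325 CPM, 0.280-fold beside 0.321 in other cells. Erythroid genes had a median of -0.97, and of -0.23 without the cells of other types. Hba-a1, an alpha globin gene that free RNA also carries at 2813 and 3578 CPM, stood at 1390 and 308 CPM, and at 159 and 98.7 CPM without the cells of other types. A single ID2+/+ cell held 56.9% of its UMIs in G2/M-score cells. HSC genes had a median of -0.10, or -0.46 without the cells of other types, beside -0.35 in other cells. By UMIs of Xist and of Y-linked genes, 12 of 39 and 36 of 63 G2/M-score cells had only the former, and 12 and 15 only the latter. The makeup by sex of the pools thus moved with genotype, and its part in the differences was not tested.

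**Figure D5:**
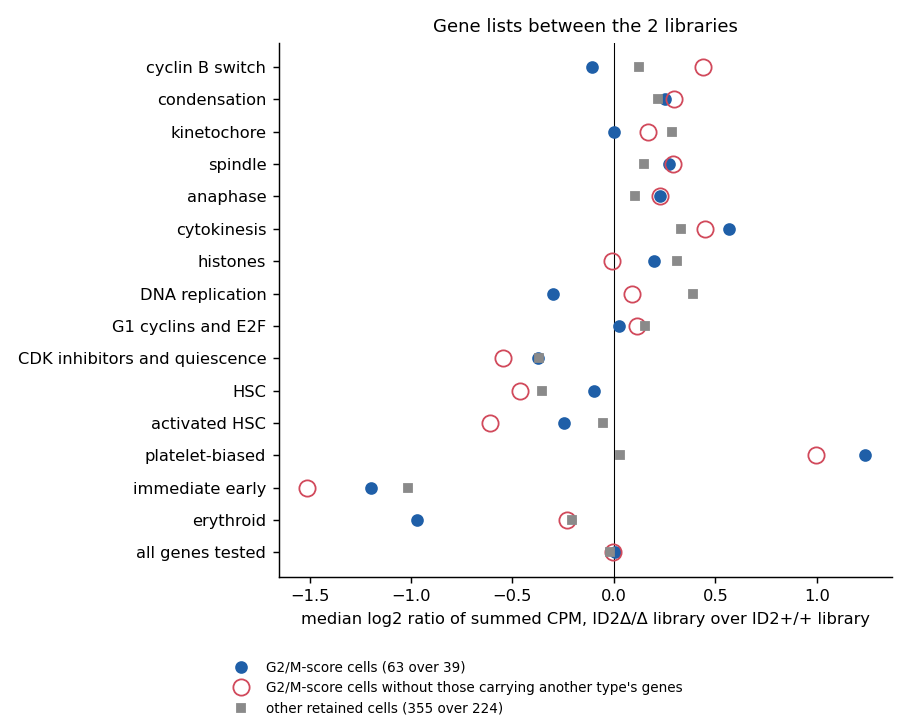
Median log2 ratio over the genes of each list, ID2Δ/Δ library over ID2+/+ library, in G2/M-score cells (filled), in G2/M-score cells without those carrying another type's genes (open circles) and in other retained cells (squares). The platelet-biased list is at 1.24 in G2/M-score cells and 0.03 in other cells, whereas immediate early genes are low in both.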

How the data were processed

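The authors deposited raw UMI counts, 1 matrix per library with 737280 barcodes and 27998 genes, with no normalization. The submitters' processing notes name Cell Ranger 2.2.0 and mm10. The UMI limit of a cell was 10% of the 99th percentile among its library's 1000 deepest barcodes. Cells with 10% or more mitochondrial UMIs, 10% or more hemoglobin UMIs, 1000 CPM or more of Klf1, Car1 and Epor, or 1% or more of Elane, Mpo, S100a8 and Ngp were left out. Counts were summed over cells and given as CPM of all UMIs. Log2 ratios were taken after adding 0.5 to every count, for genes reaching 20 UMIs in the cells compared. Intervals (Poisson, Clopper-Pearson and conditional binomial, 95%) cover counting error only, and with 1 library per genotype there are no replicates and no test was run. The limit for a count of 0 is 3 counts. No doublet caller was run, and doublets among the deepest cells were not tested for. Named were the rule genes, genes the study names, genes with at least 100 UMIs in G2/M-score cells or among the 4 most abundant of each cell cycle list, and, beyond the lists, the 10 highest and lowest ratios shared by both libraries and the 8 highest and lowest between genotypes. From these, examples are given. Other genes of the HSC, platelet-biased and D cyclin groups, and genes that differed along the split, were chosen after their values were seen. The cells and lists were chosen with earlier results of these data known. Scripts were tested on simulated data and used Python 3.11.15, NumPy 2.4.6, SciPy 1.17.1, pandas 2.3.3 and Matplotlib 3.10.9. The closing section gives the alternatives.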

Additional observations from a re-analysis of the deposited data

Results flagged for a closer look

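With all cells, the platelet-biased list lay in opposite directions in the 2 libraries, with a median log2 ratio of G2/M-score over other cells of -0.18 in ID2+/+ and 1.003 in ID2Δ/Δ. The difference was not tested, since each genotype has 1 library, and the opposition was lost without the cells of other types, where the ID2+/+ median was 0.24 and the ID2Δ/Δ median 1.13. Leaving out the 1 cell of each library with the most Pf4 as well gave -0.23 and 0.98.

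The 8 rule genes were also abundant outside the retained cells. Barcodes of 1 to 100 UMIs held them at 1139 CPM in ID2+/+ and 1262 in ID2Δ/Δ, and the cells left out for Klf1, Car1 and Epor at 1332 and 1552 CPM, beside 1378 and 1832 CPM in G2/M-score cells.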

How the results depend on the processing

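No paired analysis was possible because only 1 library represents each genotype. Across the alternatives, the median log2 ratio of mitotic genes outside the rule, G2/M-score over other cells, ran from 0.95 to 1.99 in ID2+/+ and from 0.95 to 1.82 in ID2Δ/Δ, and that of ID2Δ/Δ over ID2+/+ G2/M-score cells from 0.07 to 0.47, above 0 in 18 of 18. The alternatives of leaving out the cells of other types, leaving out the cell of most Pf4 and keeping only G2/M-score cells with 4 or more rule genes were chosen after seeing the data. The share of ID2Δ/Δ cells at or above the ID2+/+ limit became 14.1% with the top 10% and 32.0% with no cell type left out. The 401 genes at least 2-fold higher in ID2+/+ became 667 with no cell type left out, 166 at 50 or more UMIs, 1559 with no minimum and 220 in cells with only Y-linked UMIs. The 359 of ID2Δ/Δ became 226 at 50 or more UMIs and 1273 with no minimum, since fewer or more genes were tested. With no cell type left out, the ratio of median UMIs was 3.04 in ID2+/+ and 3.02 in ID2Δ/Δ, and the mitotic median in ID2Δ/Δ 0.95. Among log2 ratios whose interval lay on one side of 0, reversals concerned Pf4 in ID2+/+ (-0.021 with the top 20%, -0.65 with no cell type left out, -0.29 in cells with only Xist UMIs and -0.019 in cells with only Y-linked UMIs), Pf4 in ID2Δ/Δ (-0.49) and the platelet-biased list in ID2Δ/Δ (-0.60) with no cell type left out, and Hist1h2bc in ID2+/+ cells with only Y-linked UMIs (-0.42). Other signs turned as well, Hlf in ID2+/+ being above 0 in 4 of 18 (up to 0.31) and the platelet-biased list in ID2+/+ in 7 of 18 (up to 0.41). Lists near 0 also changed sign, DNA replication in ID2Δ/Δ being above 0 in 14 of 18 and G1 cyclins and E2F in 13 of 18 and 9 of 18 (ID2+/+ and ID2Δ/Δ). The platelet-biased list of ID2Δ/Δ over ID2+/+ G2/M-score cells ran from 0.37 to 1.30. The causes were not tested. At the limit of the rule, 1 UMI was worth 191 CPM in the lowest ID2+/+ cell and 40.8 CPM in the lowest ID2Δ/Δ cell, so depth limits which cells fall inside it.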
